A study of Mus musculus with 4 samples.

Results

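A set of 51 interferon-stimulated genes was followed through 4 RNA sequencing libraries of mouse bone marrow-derived macrophages (BMMs), the cells from which osteoclasts form in culture. The genes were chosen by symbol from what is known of them and not by their values in these libraries, although earlier results of the data were known when the set was drawn up. The set is 51 of the 23920 genes in the table, and 47 of them reached 1 FPKM (fragments per kilobase of transcript, scaled to the reads of the library) in at least 1 library. The other 4, *Iigp1*, *Gbp6*, *Gbp4* and *Ifi44*, stayed below that level everywhere and are kept in every count of members. The members were sorted into 6 groups, called families here. These are 16 IFIT/OAS-type genes, 12 GBP/IRG-type genes, 7 nucleic acid sensors and effectors and 6 ubiquitin and ADP-ribose enzymes. The rest are 7 other interferon-stimulated genes and 3 genes of antigen processing. The IFIT/OAS-type family is wider than its name, as it also holds *Isg15*, *Isg20*, *Rsad2*, *Cmpk2*, *Usp18*, *Mx1* and *Mx2*. Its counts and medians include them.

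The cells came from male C57BL/6 mice, given as 8 weeks old in the sample labels although the methods describe osteoclast cultures from younger mice, and had been in the stated medium for 24 h. The cKO library was made from *Stat5* cKO BMMs, which lack *Stat5a* and *Stat5b* through Mx1-Cre, in medium with M-CSF at 30 ng/mL, RANKL at 100 ng/mL and IL-3 at 1 ng/mL. The other 3 libraries were made from *Stat5* fl/fl BMMs, which carry the floxed genes without Cre: the IL-3 library with the same M-CSF, RANKL and IL-3, the RANKL library with M-CSF and RANKL, and the M-CSF library with M-CSF only. RANKL is the cytokine that drives osteoclast formation and M-CSF the one that keeps macrophages alive, and the question of the study was whether IL-3 needs STAT5 to hold back osteoclast formation under RANKL. Cre in the cKO mice was driven by the *Mx1* promoter, which is itself switched on by type I interferon, and *Mx1* is a member of the set. According to the methods, mice of both genotypes had been injected with poly I:C, an RNA mimic that induces interferon, to start the deletion.

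Type I interferons signal through the receptor IFNAR and the kinases JAK1 and TYK2 to a complex of STAT and IRF factors, which binds a DNA element called the ISRE. Interferon-gamma signals through IFNGR and acts on genes through the GAS element. IFIT and OAS genes are known mainly as type I targets that act on viral RNA, whereas guanylate-binding proteins (GBP) and immunity-related GTPases (IRG), which act on the vacuoles of intracellular pathogens, are known for strong induction by interferon-gamma. In the osteoclast lineage, interferon-beta made by the cells themselves is known to restrain osteoclast formation.

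Each condition had 1 library, so no test of a difference between conditions was possible, and every statement below compares these libraries. Ratios are log2 ratios of FPKM + 1, and a gene is called higher or lower where it differs by 2-fold or more on that scale. *Stat5a* was at 0.168 FPKM in the cKO library, 12.0 in the IL-3 library, 10.8 in the RANKL library and 9.89 in the M-CSF library, and *Stat5b* stood at 0.191 FPKM in the cKO library, 8.86 in the IL-3 library, 7.80 in the RANKL library and 10.8 in the M-CSF library, so the cKO library matched its label. The labels call the cells of the M-CSF library osteoclast precursors and those of the other libraries osteoclasts. The 8 osteoclast markers summed to 505 FPKM in the cKO library, 139 in the IL-3 library, 1252 in the RANKL library and 44.4 in the M-CSF library, while *Calcr*, the calcitonin receptor of mature osteoclasts, was listed at 0 in all 4. The depth estimated from the values was 36800000 fragments in the cKO library, 36900000 in the IL-3 library, 35400000 in the RANKL library and 33200000 in the M-CSF library.

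Promoters are shown to give the elements that interferon signalling is known to use. In both the IFIT/OAS-type and the GBP/IRG-type family, they are those of the 3 genes with the largest cKO ratio in either direction among genes that had a window and reached 5 FPKM in the cKO or IL-3 library. Members of other rank are not shown, and *Isg20*, *Cmpk2* and *Xaf1*, whose cKO ratios were above those of the GBP/IRG-type genes shown, held 0 ISRE cores in their windows. RefSeq promoter windows (GRCm38.p6, from 250 bases before to 50 after the start site) were found for 37 of the 51 members, and 14 had none in the table used. The ISRE core was searched as GAAANNGAAA and the GAS core as TTCNNNGAA, on both strands. Below, capitals mark these cores, and each window is written 5′ to 3′ on the strand of its gene. The first 3 belong to IFIT/OAS-type genes, with the ISRE core read on the opposite strand in *Ifit1* and *Ifit3*.
Ifit1, chr19:34640639-34640938, plus strand: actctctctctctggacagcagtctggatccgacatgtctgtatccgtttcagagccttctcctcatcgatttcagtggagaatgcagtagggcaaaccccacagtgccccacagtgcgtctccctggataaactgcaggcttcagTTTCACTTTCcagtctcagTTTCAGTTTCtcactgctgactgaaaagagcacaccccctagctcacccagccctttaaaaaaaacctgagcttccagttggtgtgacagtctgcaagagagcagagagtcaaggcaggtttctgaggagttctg
Ifit3, chr19:34583279-34583578, plus strand: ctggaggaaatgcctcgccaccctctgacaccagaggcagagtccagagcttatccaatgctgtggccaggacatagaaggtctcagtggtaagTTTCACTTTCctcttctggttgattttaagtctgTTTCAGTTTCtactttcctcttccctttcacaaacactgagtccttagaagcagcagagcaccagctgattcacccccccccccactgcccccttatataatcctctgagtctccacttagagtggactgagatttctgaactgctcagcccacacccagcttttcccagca
Isg15, chr4:156200769-156201068, minus strand: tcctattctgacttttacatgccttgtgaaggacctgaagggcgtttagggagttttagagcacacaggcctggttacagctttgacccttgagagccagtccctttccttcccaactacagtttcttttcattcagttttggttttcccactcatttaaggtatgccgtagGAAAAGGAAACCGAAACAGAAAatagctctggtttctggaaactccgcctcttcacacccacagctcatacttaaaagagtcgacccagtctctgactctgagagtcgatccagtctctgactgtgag

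*Ifit1* and *Ifit3* each held a pair of separate ISRE cores, at -104 to -95 and -85 to -76 bases from the start site in *Ifit1* and at -156 to -147 and -122 to -113 in *Ifit3*. In *Isg15*, 3 cores overlapped between -78 and -57. The next 3 windows belong to GBP/IRG-type genes.
Irgm1, chr11:48871371-48871670, minus strand: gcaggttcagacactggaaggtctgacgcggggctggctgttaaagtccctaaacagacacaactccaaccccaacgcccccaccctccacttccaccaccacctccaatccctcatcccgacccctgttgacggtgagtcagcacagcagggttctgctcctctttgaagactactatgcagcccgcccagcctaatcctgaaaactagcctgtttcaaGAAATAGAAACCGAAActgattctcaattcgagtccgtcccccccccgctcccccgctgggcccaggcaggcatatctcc
Irgm2, chr11:58214727-58215026, plus strand: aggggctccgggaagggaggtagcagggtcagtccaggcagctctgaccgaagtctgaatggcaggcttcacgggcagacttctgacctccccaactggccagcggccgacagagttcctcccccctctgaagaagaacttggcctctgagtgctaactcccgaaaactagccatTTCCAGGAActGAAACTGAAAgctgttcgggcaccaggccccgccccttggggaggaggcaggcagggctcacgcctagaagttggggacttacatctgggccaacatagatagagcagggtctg
Igtp, chr11:58199306-58199605, plus strand: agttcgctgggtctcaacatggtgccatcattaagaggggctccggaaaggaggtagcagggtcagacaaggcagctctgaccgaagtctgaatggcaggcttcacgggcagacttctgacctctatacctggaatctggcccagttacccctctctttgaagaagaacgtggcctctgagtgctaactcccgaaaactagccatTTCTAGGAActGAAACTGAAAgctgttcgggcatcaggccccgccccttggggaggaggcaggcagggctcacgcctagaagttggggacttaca

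*Irgm1* had overlapping ISRE cores, as *Isg15* did, at -30 to -21 and -24 to -15. *Irgm2* and *Igtp*, neighbours on chromosome 11, each had a GAS core just upstream of an ISRE core, at -75 to -67 and -64 to -55 in *Irgm2* and at -45 to -37 and -34 to -25 in *Igtp*. Over all members with a window, 19 of 37 (51.4%) held an ISRE core, against 3.99% of the 27025 genes with a window and 3.94% of the 8726 such genes that were tested. A GAS core was in 12 of 37 (32.4%), against 9.55% of all genes and 8.23% of tested genes. By family, the ISRE core was in 7 of 12 IFIT/OAS-type and 7 of 8 GBP/IRG-type genes, and the GAS core was in 3 of 12 IFIT/OAS-type and 4 of 8 GBP/IRG-type genes. A match of letters is a description and does not show that a factor binds there.

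**Figure D1:**
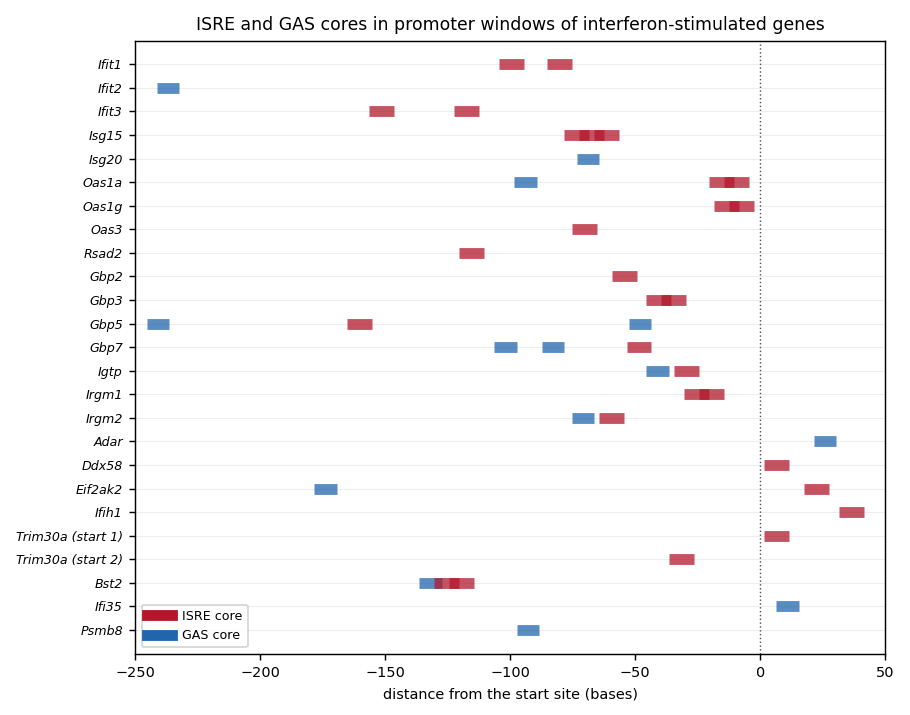
Positions of ISRE cores (red) and GAS cores (blue) in the promoter windows of the members that hold at least 1 of them, by distance in bases from the start site (dotted line). ISRE cores lay in 19 of the 37 members with a window and GAS cores in 12, and the GBP/IRG-type genes with a core are *Gbp2*, *Gbp3*, *Gbp5*, *Gbp7*, *Igtp*, *Irgm1* and *Irgm2*.

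Seen over all 4 libraries, the set was highest in the cKO library. Of the 51 members, 40 (78.4%) had their highest value there and 0 their lowest, whereas 19.2% of all 10763 genes tested were highest and 10.7% lowest in that library. The lowest value lay in the RANKL library for 28 members (54.9%, against 23.4% of all genes), in the M-CSF library for 16 and in the IL-3 library for 7. The summed level of the set was 1161 FPKM in the cKO library, 901 in the IL-3 library, 776 in the RANKL library and 877 in the M-CSF library. With libraries scaled to a common median ratio 37 members were still highest in the cKO library, and with a common upper quartile 38.

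**Figure D2:**
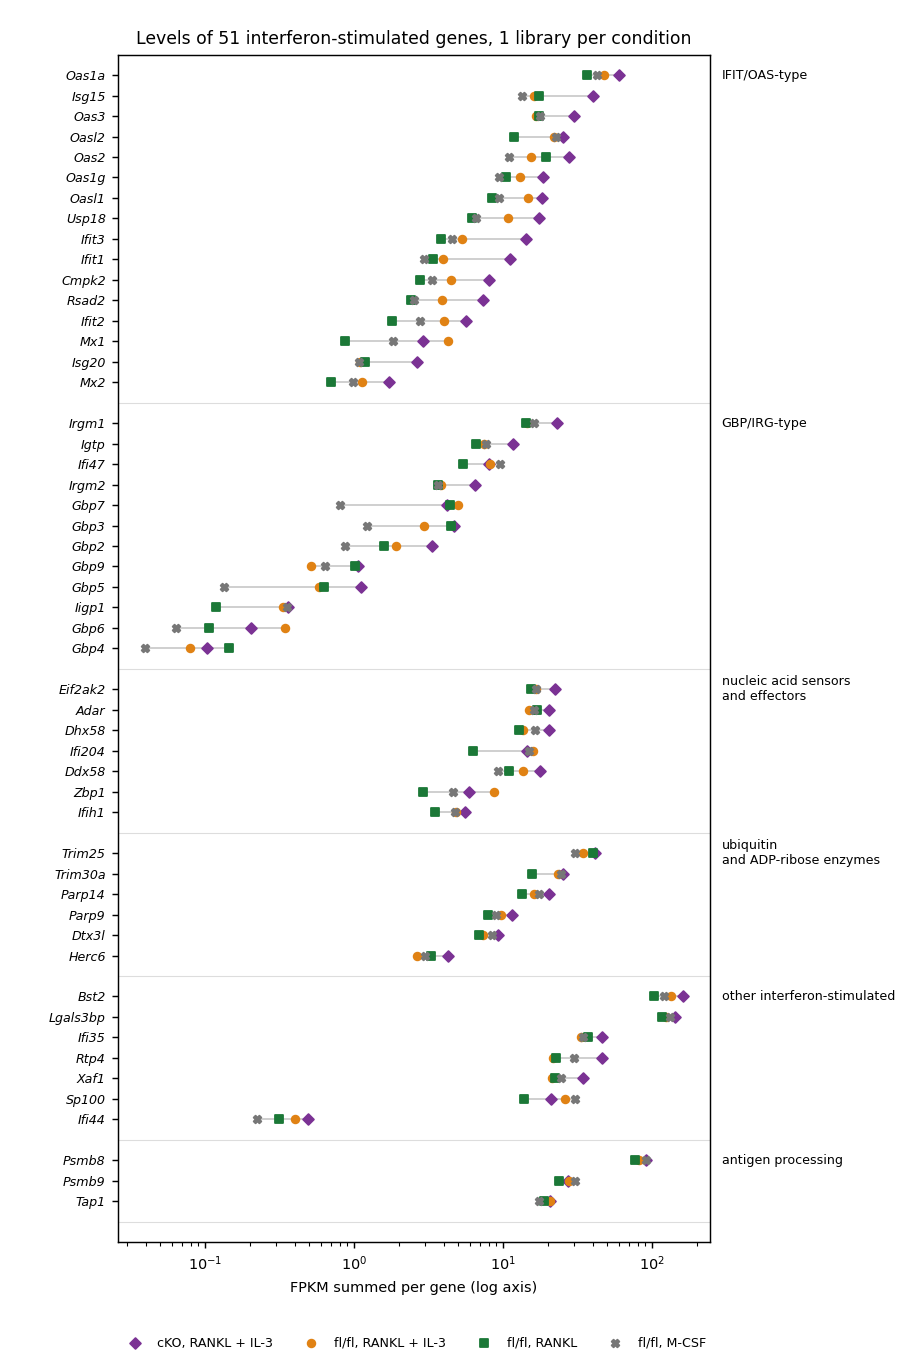
FPKM of each of the 51 members in the cKO (purple diamonds), IL-3 (orange circles), RANKL (green squares) and M-CSF (grey crosses) libraries on a log axis, grouped by family, with 1 library per condition and no error bars. The purple diamond is the rightmost point for 40 of 51 genes, and *Mx1*, *Zbp1* and *Ifi204* are among the exceptions.

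**Figure D3:**
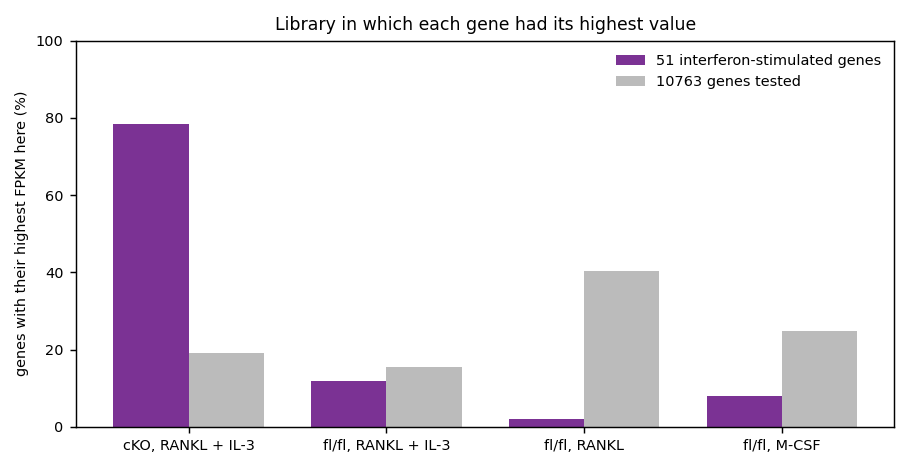
Percentage of the 51 members (purple) and of all 10763 genes tested (grey) that had their highest FPKM in each library. In the cKO library the bars stand at 78.4% for the set and 19.2% for the genes tested.

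With RANKL alone, the shares of members called higher and lower were near or below those of all genes. Set against M-CSF in *Stat5* fl/fl cells, 2 of 51 members were at least 2-fold higher (5.44% of all genes tested were) and 2 were at least 2-fold lower (6.88% of all genes). At 1.5-fold, 3 were higher (15.6% of all genes) and 6 lower (13.9%). The median log2 ratio of the members was -0.14, against 0.14 for all genes, with 20 of 51 above 0. All-gene medians moved by up to 0.15 when libraries were scaled to a common median ratio. Under that scaling the members' median was -0.30, and all genes split into 440 higher and 935 lower, in place of 585 and 740.

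The members that were higher with RANKL were neighbours on chromosome 3. *Gbp7* was at 4.38 FPKM in the RANKL library and 0.798 FPKM in the M-CSF library (log2 ratio 1.58), and stayed at 4.19 FPKM in the cKO library and 4.96 FPKM in the IL-3 library. *Gbp3* was at 4.43 FPKM in the RANKL library and 1.23 FPKM in the M-CSF library (log2 ratio 1.29). Both encode guanylate-binding GTPases, and both stayed below 5 FPKM in every library. In the same cluster *Gbp2* had 1.58 FPKM with RANKL and 0.862 FPKM with M-CSF, and *Gbp5* had 0.628 FPKM with RANKL and 0.134 FPKM with M-CSF, both under 2-fold on the log2 scale used. The 3 members of the other GBP cluster, *Gbp9*, *Gbp4* and *Gbp6* on chromosome 5, had ratios of 0.30, 0.14 and 0.06, and *Gbp6* shares 70.7% of its 50-base stretches with other genes, above all *Gm43302*, so its own value is uncertain. The median over the 12 GBP/IRG-type genes was 0.10. It was -0.18 over the 4 of them that reached 5 FPKM, *Irgm1*, *Igtp*, *Ifi47* and *Irgm2*, so the sign of this family's median depends on its low members.

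The members called lower with RANKL were *Ifi204* and *Sp100*. *Ifi204*, a DNA sensor of the PYHIN family, was at 6.28 FPKM in the RANKL library and 15.0 FPKM in the M-CSF library (log2 ratio -1.13). *Sp100*, a component of PML nuclear bodies, was at 13.9 FPKM in the RANKL library and 30.4 FPKM in the M-CSF library (log2 ratio -1.08). *Ifi204* shares 20.0% of its 50-base stretches with other genes, above all its relative *Ifi211*. Of the IFIT/OAS-type genes 0 of 16 were 2-fold apart in either direction, with a median of -0.09. Of all genes, 5.44% were at least 2-fold higher and 6.88% at least 2-fold lower. Those farthest apart were *Oasl2*, an OAS-like protein (11.8 FPKM with RANKL and 22.7 with M-CSF), and *Oas2*, an oligoadenylate synthetase (19.4 FPKM with RANKL and 11.0 with M-CSF), which pointed in opposite directions.

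Markers of cell identity differed in the same comparison. The 6 macrophage markers found in the table summed to 8269 FPKM in the RANKL library and 21829 FPKM in the M-CSF library. *Lyz2* made up most of this sum in every library, at 7176 FPKM with RANKL and 19887 FPKM with M-CSF. Taken singly, 5 of the 6 were at least 2-fold lower with RANKL (6.88% of all genes were). Neutrophil markers summed to 667 FPKM with RANKL and 1171 FPKM with M-CSF, and plasmacytoid dendritic cell markers to 5.32 FPKM with RANKL and 9.29 FPKM with M-CSF. Most of the plasmacytoid dendritic cell sum in every library was *Tcf4*, at 4.07 FPKM with RANKL and 6.67 FPKM with M-CSF. Lymphocyte markers were near 0: B cell markers summed to 1.06 FPKM with RANKL and 3.17 FPKM with M-CSF, and T cell and NK cell markers to 0.480 FPKM with RANKL and 1.17 FPKM with M-CSF, with *Cd3e* and *Gzma* at 0 in all 4 libraries. In bulk libraries, fewer cells of a type and less RNA per cell cannot be told apart. The part of these markers in the result was not tested.

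With IL-3 added to RANKL, the share of members called higher was near that of all genes. In the IL-3 library 3 of 51 members were at least 2-fold higher than in the RANKL library (6.11% of all genes were) and 0 at least 2-fold lower (3.47%). At 1.5-fold, 8 were higher (12.1% of all genes) and 0 lower (12.7%). The median log2 ratio of the members was 0.17, against -0.15 for all genes, and 37 of 51 were above 0, against 36.0% of all genes. Scaled to a common median ratio, the members' median was 0.29, 45 were above 0 and *Sp100* also passed 2-fold, while all genes split into 814 higher and 274 lower in place of 658 and 373.

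The members at least 2-fold higher with IL-3 were *Mx1*, *Zbp1* and *Ifi204*. *Mx1* was at 4.24 FPKM in the IL-3 library and 0.864 FPKM in the RANKL library (log2 ratio 1.49). A RefSeq record of the non-coding kind held 1.51 FPKM of its IL-3 value and 0.339 FPKM of its RANKL value. *Zbp1*, a sensor of nucleic acid in the Z form that can start necroptosis, was at 8.64 FPKM in the IL-3 library and 2.91 FPKM in the RANKL library (log2 ratio 1.30). *Ifi204* was at 15.9 FPKM in the IL-3 library and 6.28 FPKM in the RANKL library (log2 ratio 1.21). Of these, *Ifi204* stood close to its M-CSF level of 15.0 FPKM, while *Mx1* stood above its M-CSF level of 1.83 FPKM and *Zbp1* above its M-CSF level of 4.63 FPKM. The others past 1.5-fold were *Sp100*, *Ifit2*, *Oasl2*, *Oasl1* and *Usp18*, with log2 ratios of 0.85, 0.84, 0.83, 0.73 and 0.70. *Usp18*, which removes ISG15 from proteins and dampens signalling at IFNAR, was at 10.7 FPKM in the IL-3 library and 6.21 FPKM in the RANKL library.

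The 4 genes of the *Oas* cluster on chromosome 5 did not share a direction with IL-3. *Oas2* had a log2 ratio of -0.32 and *Oas3* one of -0.08, whereas *Oas1a*, the most abundant IFIT/OAS-type gene, had 47.4 FPKM in the IL-3 library and 36.4 FPKM in the RANKL library (log2 ratio 0.37). Of the 50-base stretches of *Oas1a* 57.6%, and of those of *Oas1g* 45.7%, occur in another gene, above all in each other, so how reads were split between them is uncertain. The IFIT/OAS-type median was 0.38 with 1 of 16 genes at least 2-fold higher, and the GBP/IRG-type median 0.10 with 0 of 12 (6.11% of all genes). Macrophage markers summed to 17456 FPKM in the IL-3 library and 8269 FPKM in the RANKL library, and neutrophil markers to 990.5 FPKM with IL-3 and 667 FPKM with RANKL alone. The sums were 1.27 FPKM with IL-3 and 0.480 FPKM with RANKL alone for T cell and NK cell markers, 5.39 FPKM with IL-3 and 5.32 FPKM with RANKL alone for plasmacytoid dendritic cell markers, and 1.07 FPKM with IL-3 and 1.06 FPKM with RANKL alone for B cell markers. Their part in the result was not tested.

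Set against M-CSF alone, the IL-3 library had more of the IFIT/OAS-type genes above 0 than below, while the medians of the other families lay between -0.11 and 0.05. Of 51 members 1, *Gbp7*, was at least 2-fold higher (2.5% of all genes) and 0 were lower (1.42%), with a median of 0.08 against -0.00 for all genes. *Gbp7* had a log2 ratio of 1.73 here. At 1.5-fold, 7 of 51 members were higher (5.34% of all genes) and 0 lower (5.19%). Of the IFIT/OAS-type genes 14 of 16 were above 0, against 49.4% of all genes, with a median of 0.33 and sums of 184 FPKM in the IL-3 library and 152 FPKM in the M-CSF library. Macrophage markers summed to 17456 FPKM in the IL-3 library and 21829 FPKM in the M-CSF library. Of these markers only *Itgam* was higher in the IL-3 library, at 351 FPKM with IL-3 and 220 FPKM with M-CSF. The part of the markers in the result was not tested.

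With *Stat5* deleted, under RANKL and IL-3, most members had a ratio above 0, as did a smaller majority of all genes. In the cKO library 4 of 51 members were at least 2-fold higher than in the IL-3 library (2.12% of all genes were) and 0 at least 2-fold lower (4.28%). At 1.5-fold, 13 were higher (8.44% of all genes) and 0 lower (8.89%). The median log2 ratio of the members was 0.35, against 0.13 for all genes, and 42 of 51 were above 0, against 64.4% of all genes. Scaled to a common median ratio, 40 members were above 0.

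The members at least 2-fold higher were *Ifit1*, *Ifit3*, *Isg15* and *Rtp4*. *Ifit1*, which binds viral RNA that lacks the marks of a host cap, was at 11.2 FPKM in the cKO library, 3.97 in the IL-3 library, 3.36 in the RANKL library and 2.94 in the M-CSF library, and its log2 ratio in cKO against *Stat5* fl/fl cells was 1.29. *Ifit3*, a partner of other IFIT proteins, had 14.2 FPKM in the cKO library, 5.28 in the IL-3 library, 3.80 in the RANKL library and 4.51 in the M-CSF library (log2 ratio 1.27), with the reservation that 51.2% of its 50-base stretches occur in another gene, above all *Ifit3b*. Their 3 *Stat5* fl/fl libraries lay close together and the cKO library stood apart. *Isg15*, a ubiquitin-like modifier, was at 40.1 FPKM in the cKO library, 16.1 in the IL-3 library, 17.5 in the RANKL library and 13.4 in the M-CSF library (log2 ratio 1.26). *Rtp4*, a chaperone of membrane receptors, was at 46.2 FPKM in the cKO library, 21.7 in the IL-3 library, 22.6 in the RANKL library and 29.8 in the M-CSF library (log2 ratio 1.06). Its ratio was under 2-fold with a common median ratio (0.92) or a common upper quartile (0.97), and it overlaps exons of *Gm45338*. For both, as for *Ifit1* and *Ifit3*, the IL-3 library lay within 1.5-fold of the RANKL library on the log2 scale used.

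Past 1.5-fold but under 2-fold were *Oas2* and *Oas3* (log2 ratio 0.82 each), *Isg20*, an RNA exonuclease (0.79), *Rsad2*, which makes a chain-terminating nucleotide (0.76), its neighbour *Cmpk2*, a nucleotide kinase (0.73), *Usp18* (0.66), *Xaf1*, a partner of the cell death inhibitor XIAP (0.66), and the GTPases *Irgm1* and *Irgm2* (0.62 each). *Isg20* was low, at 2.62 FPKM in the cKO library and 1.10 FPKM in the IL-3 library. A single transcript held 1.74 FPKM of its cKO value and 0.0910 FPKM of its IL-3 value. Another was level, at 0.887 FPKM in the cKO library and 0.871 FPKM in the IL-3 library. *Irgm1*, the most abundant GBP/IRG-type gene, was at 22.8 FPKM in the cKO library, 14.5 in the IL-3 library, 14.2 in the RANKL library and 16.2 in the M-CSF library. Like *Isg15*, it was highest with *Stat5* deleted and nearly level among the *Stat5* fl/fl libraries. *Oas1a* was at 60.0 FPKM in the cKO library, 47.4 in the IL-3 library, 36.4 in the RANKL library and 42.6 in the M-CSF library, and its log2 ratio in cKO cells was 0.33.

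Of the 7 nucleic acid sensors and effectors, *Zbp1* and *Ifi204* were highest in the IL-3 library. The other 5 were highest in the cKO library, by less than 1.5-fold over the IL-3 library on the log2 scale used. *Eif2ak2*, the RNA-activated kinase PKR and the most abundant gene of its family, was at 22.2 FPKM in the cKO library, 16.7 in the IL-3 library, 15.4 in the RANKL library and 16.6 in the M-CSF library (log2 ratio 0.39 in cKO cells). *Dhx58*, the gene for LGP2, was at 20.4 FPKM in the cKO library, 13.5 in the IL-3 library, 12.8 in the RANKL library and 16.3 in the M-CSF library (0.56), and *Ddx58*, the gene for RIG-I, at 17.7 FPKM in the cKO library, 13.7 in the IL-3 library, 10.9 in the RANKL library and 9.23 in the M-CSF library (0.35). *Ifih1*, the gene for MDA5, had the smallest cKO ratio of these at 0.17, with 5.58 FPKM in the cKO library and 4.84 FPKM in the IL-3 library, and *Adar*, which edits adenosine to inosine in RNA, a ratio of 0.42, with 20.3 FPKM in the cKO library and 14.9 FPKM in the IL-3 library.

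All 6 ubiquitin and ADP-ribose enzymes were highest in the cKO library, by less than 1.5-fold over the IL-3 library on the log2 scale used. Scaled to a common median ratio, 5 of the 6 stayed above the IL-3 library, and the family's median cKO ratio was 0.15 in place of 0.28. *Trim25*, a ubiquitin ligase acting on RIG-I, was at 41.4 FPKM in the cKO library, 34.3 in the IL-3 library, 40.2 in the RANKL library and 30.2 in the M-CSF library (log2 ratio 0.26 in cKO cells), and *Herc6*, the main ligase for ISG15 in the mouse, at 4.25 FPKM in the cKO library, 2.63 in the IL-3 library, 3.27 in the RANKL library and 2.98 in the M-CSF library (0.53). *Parp14* and *Parp9*, which handle ADP-ribose, had cKO ratios of 0.30 and 0.22, *Dtx3l*, the ligase that pairs with PARP9, one of 0.30, and *Trim30a* one of 0.12. *Dtx3l* and *Parp9* overlap on opposite strands. Among the other interferon-stimulated genes, *Bst2*, which tethers budding viruses, was the most abundant member of the set, at 161 FPKM in the cKO library, 133 in the IL-3 library, 103 in the RANKL library and 120.3 in the M-CSF library (0.27), followed by *Lgals3bp*, a secreted glycoprotein, at 141 FPKM in the cKO library, 124 in the IL-3 library, 116 in the RANKL library and 131 in the M-CSF library (0.19). *Ifi35* had a cKO ratio of 0.47, with 46.0 FPKM in the cKO library and 33.0 FPKM in the IL-3 library. Of the members that did not reach 1 FPKM, *Iigp1* was at 0.118 to 0.358 FPKM over the 4 libraries, *Gbp6* at 0.0636 to 0.341 FPKM, *Gbp4* at 0.0395 to 0.145 FPKM and *Ifi44* at 0.223 to 0.491 FPKM.

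The members with a negative ratio in the cKO library included the 3 called higher with IL-3. The 9 genes were *Mx1*, *Zbp1*, *Sp100*, *Ifi204*, *Gbp7*, *Gbp6*, *Ifi47*, *Psmb9* and *Tap1*. *Zbp1* was at 5.90 FPKM in the cKO library and 8.64 FPKM in the IL-3 library (log2 ratio -0.48), and *Mx1* at 2.91 FPKM in the cKO library and 4.24 FPKM in the IL-3 library (-0.42). *Sp100* was at 21.0 FPKM in the cKO library and 25.9 FPKM in the IL-3 library (-0.29), and *Ifi204* at 14.5 FPKM in the cKO library and 15.9 FPKM in the IL-3 library (-0.12). *Mx1* was the only IFIT/OAS-type gene of 16 with a negative ratio in the cKO library. The other 4 genes past 1.5-fold with IL-3 had positive ratios in the cKO library, namely 0.66 for *Usp18*, 0.41 for *Ifit2*, 0.30 for *Oasl1* and 0.19 for *Oasl2*. Both comparisons use the IL-3 library. The genes of antigen processing hardly differed: *Psmb8*, an immunoproteasome subunit, was at 90.8 FPKM in the cKO library, 81.8 in the IL-3 library, 76.1 in the RANKL library and 90.9 in the M-CSF library, and *Psmb9* and the peptide transporter gene *Tap1* had cKO ratios of -0.04 and -0.00. *Psmb9* and *Tap1* overlap on opposite strands, and whether reads were counted by strand is not given in the sources used here.

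By family, the IFIT/OAS-type genes had a median log2 ratio of 0.70 in the cKO library, with 3 of 16 at least 2-fold and 9 at least 1.5-fold higher. Of all genes tested, 2.12% were at least 2-fold and 8.44% at least 1.5-fold higher. The GBP/IRG-type genes had a median of 0.43, with 0 of 12 at least 2-fold and 2 at least 1.5-fold higher, and were much less abundant. Summed levels were 291 FPKM in the cKO library and 183 FPKM in the IL-3 library for the IFIT/OAS-type genes, and 63.9 FPKM in the cKO library and 45.5 FPKM in the IL-3 library for the GBP/IRG-type genes. Adding 1 FPKM before taking ratios shrinks those of low genes, and with 0.1 FPKM in its place the median was 0.77 for IFIT/OAS-type genes, 4 of them at least 2-fold higher, and 0.64 for GBP/IRG-type genes, 0 of them at least 2-fold higher. The other medians were 0.35 for sensors, 0.28 for ubiquitin and ADP-ribose enzymes, 0.27 for other interferon-stimulated genes and -0.00 for antigen processing. With the promoters in view, the 19 members with an ISRE core had a median of 0.53 in the cKO library and the 18 without one a median of 0.28. The ranges overlapped, from -0.20 to 1.29 with a core and from -0.29 to 0.79 without. Those 19 include 7 IFIT/OAS-type and 7 GBP/IRG-type genes, the families with the highest medians, so motif and family cannot be told apart. For the GAS core, the median was 0.41 for the 12 members with one and 0.35 for the 25 without.

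**Figure D4:**
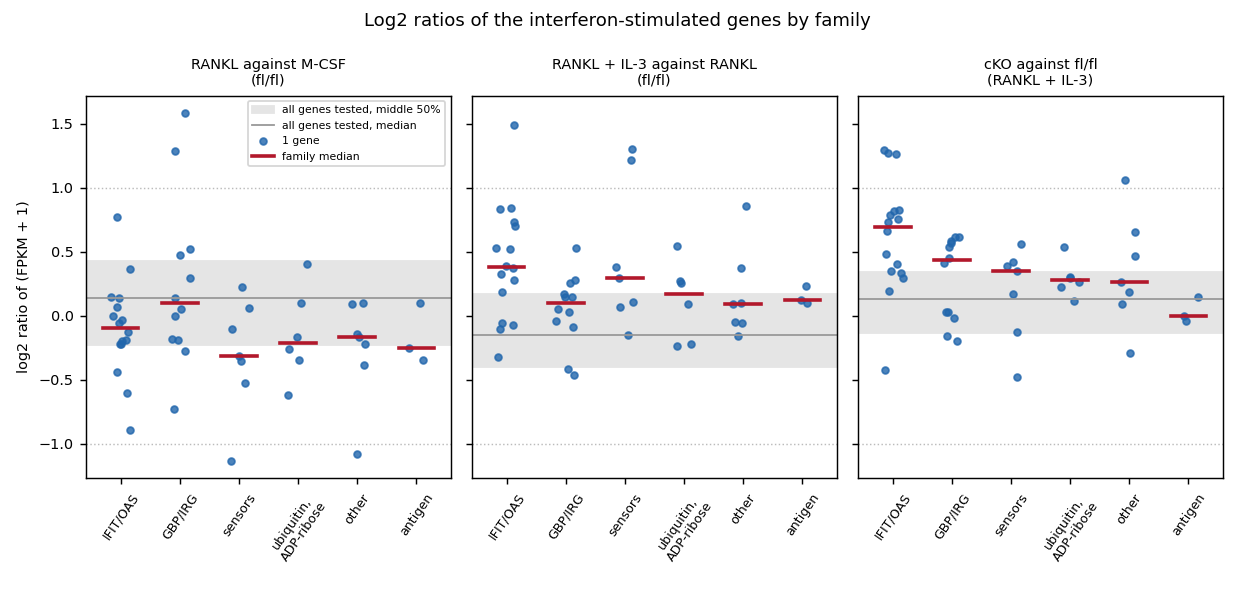
Log2 ratios of FPKM + 1 for each member (blue points) by family, with the family median (red line), in the 3 comparisons. The grey band and line give the middle 50% and the median of all 10763 genes tested, and dotted lines mark 2-fold. In the cKO comparison the IFIT/OAS-type median of 0.70 lies above the band, and *Mx1* is the point at -0.42.

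Many members lie beside relatives of their own family. Positions are those of GENCODE M21 on GRCm38. Members lay on 14 chromosomes, and 30 of 51 lay in 11 runs with gaps of at most 500 kb. *Ifit2*, *Ifit3* and *Ifit1* lie within 99.3 kb on chromosome 19 (34550694 to 34650009) and had a median cKO ratio of 1.27, with *Ifit2* (5.62 FPKM in the cKO library and 4.00 FPKM in the IL-3 library) below its neighbours. *Oas2*, *Oas3*, *Oas1g* and *Oas1a* lie on chromosome 5 (120730333 to 120907521) with a median of 0.65, and *Rsad2* and *Cmpk2* on chromosome 12 (26442746 to 26479837) with a median of 0.74. The 4 GBP genes on chromosome 3 (142493978 to 142638008) had a median of 0.47, and *Psmb9*, *Tap1* and *Psmb8* on chromosome 17 (34181987 to 34201454) one of -0.00.

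Set against *Stat5* fl/fl cells with RANKL but no IL-3, the cKO library held 11 of 51 members at least 2-fold higher (0.938% of all genes were) and 0 at least 2-fold lower (0.353%). The median of the members was 0.63, against -0.02 for all genes, and 49 of 51 were above 0, also under both scalings. The exceptions were *Gbp7* and *Gbp4*, at -0.05 each. Of the 11 genes, 10 were IFIT/OAS-type (*Ifit3*, *Ifit1*, *Usp18*, *Rsad2*, *Cmpk2*, *Ifit2*, *Isg15*, *Mx1*, *Oasl1* and *Oasl2*, with log2 ratios from 1.66 down to 1.03) and the other was *Ifi204* (1.09). The GBP/IRG-type genes had 0 of 12, or 2 of 12 with 0.1 FPKM added in place of 1, when the IFIT/OAS-type genes had 12 of 16. These libraries differ in both genotype and IL-3, which cannot be told apart here.

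The signalling genes around the set were looked at by role. Of 8 ligand genes, the 7 for interferon-alpha, interferon-gamma and interferon-lambda that were listed stood at 0 in all 4 libraries, and *Ifnb1*, interferon-beta, was at 0.046 FPKM in the cKO library, 0.0923 FPKM in the IL-3 library and 0 in the RANKL and M-CSF libraries. The 5 receptor genes had 0 at least 2-fold apart in any of the 3 neighbouring comparisons. In these, 2.12% to 6.88% of all genes were called in each direction. For type I interferon, *Ifnar1* was at 27.1 FPKM in the cKO library and 33.1 FPKM in the IL-3 library, and *Ifnar2* at 63.8 FPKM in the cKO library and 70.5 FPKM in the IL-3 library. For interferon-gamma, *Ifngr1* was at 29.2 FPKM in the cKO library and 29.9 FPKM in the IL-3 library, and *Ifngr2* at 75.0 FPKM in the cKO library and 75.1 FPKM in the IL-3 library. The cKO log2 ratios of the receptor genes ran from -0.47 for *Il10rb*, a chain of the interferon-lambda receptor, to -0.00 for *Ifngr2*.

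Among 8 genes for JAK kinases, STAT factors and IRF factors, 1 was at least 2-fold lower with RANKL (6.88% of all genes were). In the other 2 comparisons 0 were 2-fold apart, where 2.12% to 6.11% of all genes were called in each direction. That gene was *Stat2*, at 11.7 FPKM in the cKO library, 13.4 in the IL-3 library, 6.37 in the RANKL library and 15.1 in the M-CSF library (log2 ratio -1.13 for RANKL against M-CSF). *Irf7*, a factor that amplifies interferon responses and is itself interferon-stimulated, was at 59.6 FPKM in the cKO library, 36.8 in the IL-3 library, 27.0 in the RANKL library and 34.8 in the M-CSF library (log2 ratio 0.68 in cKO cells). Its order of libraries was that of the summed set. *Irf9*, which encodes a factor that binds the ISRE, was at 28.3 FPKM in the cKO library and 22.9 FPKM in the IL-3 library (log2 ratio 0.29).

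Of 4 feedback inhibitors, 2 were called higher with RANKL (5.44% of all genes were). With IL-3, 1 was called higher (6.11% of all genes), and in cKO cells 1 was called lower (4.28%). *Socs3*, an inhibitor of JAK kinases, was at 12.4 FPKM in the cKO library, 30.7 in the IL-3 library, 12.1 in the RANKL library and 1.12 in the M-CSF library (log2 ratio -1.25 in cKO cells and 1.27 with IL-3). *Socs1*, which acts on JAK kinases at the interferon receptors, was at 6.07 FPKM in the cKO library, 11.8 in the IL-3 library, 5.79 in the RANKL library and 0.991 in the M-CSF library (log2 ratio -0.86 in cKO cells). Both were lower in the cKO library than in the IL-3 library, and near their RANKL levels. The other inhibitors, *Ptpn6* and *Pias1*, had cKO log2 ratios of 0.09 and 0.40.

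Of 10 adaptors and sensors upstream of interferon, 2 were called lower with RANKL (6.88% of all genes were). With IL-3, 3 were called higher (6.11% of all genes), and in cKO cells 1 was called lower (4.28%). *Tlr7*, the endosomal receptor for single-stranded RNA, was at 14.3 FPKM in the cKO library, 28.2 in the IL-3 library, 6.25 in the RANKL library and 30.8 in the M-CSF library. *Tmem173*, the gene for STING, was at 9.21 FPKM in the cKO library, 21.3 in the IL-3 library, 6.00 in the RANKL library and 18.8 in the M-CSF library. *Ikbke*, a kinase that activates IRF factors, was at 30.9 FPKM in the cKO library, 33.5 in the IL-3 library, 14.7 in the RANKL library and 22.3 in the M-CSF library. For *Tlr7*, *Tmem173* and *Ikbke*, as for the summed macrophage markers, the cKO level lay between those of the IL-3 and RANKL libraries. The RANKL library was lowest for each. The cKO level of *Ikbke* lay near its IL-3 level.

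Other known targets of interferon-gamma did not move as a block. Of 7 genes, 1 was at least 2-fold higher in the cKO library than in the IL-3 library (2.12% of all genes were). Another 2 were at least 2-fold lower (4.28% of all genes). *Socs1* is in this list and in that of the feedback inhibitors. *Cxcl10*, a chemokine that type I interferon and NF-kB also induce, was at 53.4 FPKM in the cKO library, 26.0 in the IL-3 library, 17.3 in the RANKL library and 3.25 in the M-CSF library (log2 ratio 1.01 in cKO cells). *Irf8*, a factor of the macrophage lineage, was at 10.2 FPKM in the cKO library, 38.2 in the IL-3 library, 5.30 in the RANKL library and 54.3 in the M-CSF library (log2 ratio -1.81 in cKO cells). *Cd274*, the gene for PD-L1, was at 5.53 FPKM in the cKO library, 18.6 in the IL-3 library, 8.93 in the RANKL library and 1.37 in the M-CSF library (log2 ratio -1.59 in cKO cells). With RANKL against M-CSF, 3 of the 7 were higher (5.44% of all genes) and 1 lower (6.88%). With IL-3 against RANKL 1 was higher (6.11% of all genes).

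**Figure D5:**
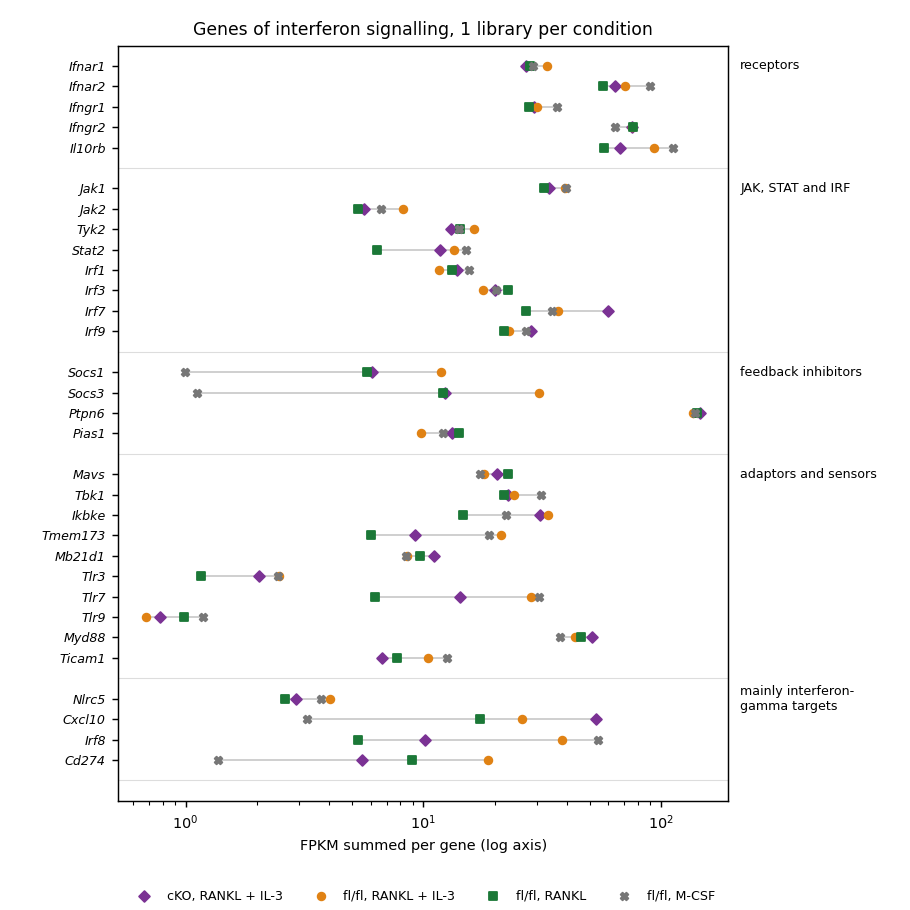
FPKM of the genes of interferon signalling that reached 1 FPKM, by role, in the cKO (purple diamonds), IL-3 (orange circles), RANKL (green squares) and M-CSF (grey crosses) libraries on a log axis. Of the 5 receptor genes 0 are 2-fold apart in the 3 neighbouring comparisons, *Irf7* and *Cxcl10* are highest in the cKO library at 59.6 and 53.4 FPKM, and *Socs1* and *Socs3* are highest in the IL-3 library.

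The cell markers beside the cKO comparison did not point one way. Osteoclast markers summed to 505 FPKM in the cKO library and 139 FPKM in the IL-3 library, and macrophage markers to 12391 FPKM in the cKO library and 17456 FPKM in the IL-3 library. Neutrophil markers summed to 702 FPKM in the cKO library and 990.5 FPKM in the IL-3 library, and plasmacytoid dendritic cell markers to 5.60 FPKM in the cKO library and 5.39 FPKM in the IL-3 library. Lymphocyte markers were again near 0, with T cell and NK cell markers at 0.626 FPKM in the cKO library and 1.27 FPKM in the IL-3 library, and B cell markers at 0.585 FPKM in the cKO library and 1.07 FPKM in the IL-3 library. *Siglech*, a defining gene of plasmacytoid dendritic cells, which are known for making type I interferon, was at 0.259 FPKM in the cKO library and 0.450 FPKM in the IL-3 library. The osteoclast marker sum was highest in the RANKL library, where the summed set was lowest. The part of cell composition in the cKO result was not tested.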

How the data were processed

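Total RNA of 4 BMM cultures, 1 per condition, was sequenced on a HiSeq2000 after TruSeq RNA library preparation. According to the submitters' processing notes, the authors used TopHat2 2.0.13, Cufflinks 2.2.1 and the mm10 build, and deposited 1 value per RefSeq transcript and library. No unit is written in the deposited table, and reading the values as FPKM rests on the software and on the range of the values. For options, strand setting and read length, the sources used here give nothing. Columns were matched to samples through the label descriptions. The sample labels give an age of 8 weeks.

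Transcripts (33170) were summed per gene ID (23920 genes), and 46 small RNA genes were left out. Genes reaching 1 FPKM in any library (10763) were tested as differences of log2(FPKM + 1), and a difference of 2-fold or more was called. As each condition had 1 library, there is no replicate check, and no p-value was computed. Members, families, pathway lists and marker lists were chosen with earlier results of these data known. Named in full by rule were members at least 2-fold apart in 1 of the 3 neighbouring comparisons with at least 5 FPKM there, and the most abundant member of each family. In the pathway lists, *Stat2*, *Irf7*, *Irf9*, *Ifnb1*, interferon receptors and genes at least 2-fold apart were named, and 1 gene was left out of its list and is not reported here. Other genes named, such as *Mx1*, *Gbp7*, *Gbp3* and *Usp18*, were chosen after their values were seen. So were the comparison of genes past 1.5-fold with IL-3 and the splits by ISRE core and by GAS core.

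Depth was estimated from the steps between low FPKM values of transcripts of at least 3000 bases. Between 68.6% and 71.6% of these values lay within 0.2 steps of a whole number, against 40% for even spacing, so the depth is approximate. It gave a 95% counting interval of a member's ratio with a median half-width of 0.12, 0.11 and 0.10 in the 3 comparisons, which covers counting error only. Positions and shared 50-base stretches came from GENCODE M21 (GRCm38, the build that mm10 names) and promoters from RefSeq (GRCm38.p6). Calculations used Python 3.11.15, numpy 2.4.6, pandas 2.3.3 and matplotlib 3.10.9. The ratio step and its 2-fold calls were tested on simulated data, whereas the depth estimate and the counting interval were not. Alternatives were the pseudocount, the minimum, 2 scalings, the threshold and the most abundant transcript per gene.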

Additional observations from a re-analysis of the deposited data

How the results depend on the processing

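Counts and medians of the members, the IFIT/OAS-type and the GBP/IRG-type families gave 308 alternative values. Of these, 257 stayed within the tolerance (1.5 times for counts, the median counting half-width for medians) and 51 moved. A change of direction was not scored for them. The setting without a minimum is the main setting for members, so its values could not move. Further alternatives, only members at 1 FPKM or more and only members sharing up to 10% of their 50-base stretches, were chosen after seeing the data. For RANKL against M-CSF, the 2 higher members became 0 with a 5 FPKM minimum, 0 at 4-fold and 1 without members sharing sequence, and the same values held for the GBP/IRG-type genes. The 2 lower members became 4 with a pseudocount of 0.1 FPKM, 6 at 1.5-fold, 0 at 4-fold and 1 without members sharing sequence. Higher IFIT/OAS-type genes became 1 at 1.5-fold, and lower ones 1 with 0.1 FPKM, 1 with a common median ratio and 2 at 1.5-fold. Lower GBP/IRG-type genes became 1 with 0.1 FPKM and 1 at 1.5-fold. With a common median ratio, medians were -0.30 for all members and -0.24 for IFIT/OAS-type genes. The GBP/IRG-type median of 0.10 was 0.46 with 0.1 FPKM, 0.30 at 1 FPKM or more and -0.18 with the 5 FPKM minimum.

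For IL-3 with RANKL against RANKL, the 3 higher members became 5 with 0.1 FPKM, 8 at 1.5-fold and 0 at 4-fold. The 1 higher IFIT/OAS-type gene became 2 with 0.1 FPKM, 0 with the 5 FPKM minimum, 5 at 1.5-fold and 0 at 4-fold, and 1 GBP/IRG-type gene was higher with 0.1 FPKM. With a common median ratio, medians were 0.29 for all members, 0.54 for IFIT/OAS-type and 0.24 for GBP/IRG-type genes. The IFIT/OAS-type median was also 0.54 with 0.1 FPKM and 0.52 without members sharing sequence. For cKO against *Stat5* fl/fl, the 4 higher members became 13 at 1.5-fold, 0 at 4-fold and 2 without members sharing sequence, higher IFIT/OAS-type genes 9 at 1.5-fold and 0 at 4-fold, and higher GBP/IRG-type genes 2 at 1.5-fold. The IFIT/OAS-type median was 0.57 with a common median ratio and 0.58 from the most abundant transcript, and the GBP/IRG-type median 0.64 with 0.1 FPKM and 0.60 with the 5 FPKM minimum. For IL-3 with RANKL against M-CSF, the 1 higher member became 6 with 0.1 FPKM, 7 at 1.5-fold, and 0 with the 5 FPKM minimum, at 4-fold and without members sharing sequence. For cKO with IL-3 against *Stat5* fl/fl with RANKL, the 11 higher members became 27 at 1.5-fold and 0 at 4-fold.

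Of 156 alternative values for members named by the rule, 115 stayed within their counting interval and 41 moved. Direction was scored only for ratios called in the main setting, and 0 of these reversed. Smaller ratios could change sign, as *Isg15* did with IL-3 against RANKL, from -0.11 to 0.06 with a common median ratio. Of the named members only *Zbp1* has more than 1 transcript, so taking the most abundant transcript could move no other. No paired analysis was possible because each group has 1 library and no test was made. Each condition is 1 culture, so differences between cultures or mice cannot be told apart from differences between conditions.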
